A study of Mus musculus with 28 samples.

Results

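Peripheral neural stem cells (pNSCs) are cells from organs outside the brain and spinal cord that grow in culture like neural stem cells (NSCs). The comparison set the 3 RNA-seq libraries named Sox2-GFP lung pNSCs against the 3 named Sox2-GFP brain NSCs, 6 of 28 samples in the series, which were chosen by their labels and by no measured value. Both groups carried the Sox2-GFP knock-in allele, in which green fluorescent protein marks cells that use the *Sox2* gene. The strain is labelled C57BL/6 in both. The study, however, says that transgenic mice were crossed to wild-type mice, whose background was CD1 or a mix of CD1 and C3H. The background of these lines is therefore not certain. The lung pNSCs came from mice of postnatal day 1 to 5. Their GFP+ lung cells were sorted, kept on gelatin for 3 weeks in a medium with EGF and bFGF, and grown on from clusters that were picked singly by hand. The brain NSCs came from whole brain, and whether those mice were adult or postnatal is not given for these libraries. Lines were made from mice of either sex. Both groups are cultured lines, so organ of origin and line cannot be told apart. Because GFP+ cells were sorted, the presence of *Sox2* RNA in the lung pNSCs follows from how they were obtained. The study calls the libraries of a group biological replicates, and neither it nor the labels say whether they were separate cultures or mice, so each p-value measures the spread between these libraries.

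NSCs divide, renew themselves and give rise to neurons, astrocytes and oligodendrocytes. In culture they are kept dividing by EGF and FGF, and they express transcription factors of the Sox and Pax families together with the intermediate filaments nestin and vimentin. In the embryo, a code of transcription factors divides the neural tube from head to tail. *Otx2* and *Six3* act in the forebrain, *En1* and *En2* at the border of midbrain and hindbrain, and the Hox genes in the hindbrain and spinal cord. *Pax3*, *Pax7*, *Msx1* and the Nkx genes divide the tube from back to belly. The tests ask in which of these programmes a line from the lung differs from a line from the brain.

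The 6 libraries held 17026140 to 22637031 counts. A floor of 3 counts, under which no fold was formed, corresponds to 0.13 to 0.173 CPM. Levels below are CPM, a gene's counts relative to the library total after TMM scaling, which evens out libraries on genes that hardly differ. Of 28244 genes, 13474 passed the filter on low counts. With edgeR's quasi-likelihood test, 2096 genes (15.6%) passed an adjusted p of 0.05 and a log2 fold change of at least 1, of which 768 (5.7% of those tested) were higher and 1328 (9.86%) lower in lung pNSCs. The groups did not overlap at 2088 of these 2096. They were also apart at genes that were not called, such as *Sox2*, *Nes* and *Olig2*. Lack of overlap is thus no mark of the called genes, and its share over all tested genes is not given here. The replicates lay close together: pairs of libraries of a group differed by 1.18 to 1.41 times counting error, and edgeR's common biological coefficient of variation came to 0.0125. So tight a spread put 10390 genes (77.1%) past the adjusted p alone, 38.3% of tested genes on the higher and 38.9% on the lower side. The fold limit therefore decided most calls, and "rose", "fell", "higher" and "lower" as calls need both thresholds below. The median log2 fold change of all tested genes was 0.00, and the median of its absolute value was 0.33. Whether reads were counted by strand is not stated. Counts of named genes that overlap another transcript (among them *Pax6*, *Msi1*, *Six3*, *Zfhx4*, *Gpr17*, *Nkx2-2*, *Emx2*, *Zic1*, *Neurod1*, *Ccne2*, *Hoxa7*, *Egfr* and *Pcolce*) can therefore hold reads of that transcript. Fold changes of 4 or more were rarer, with 145 genes higher and 560 lower.

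Across 16234 genes (quantile-normalized log2 of counts with 1 added), Pearson's r between the mean profiles of lung pNSCs and brain NSCs was 0.971. Against the samples labelled Lung it was 0.536 for lung pNSCs and 0.534 for brain NSCs. The Euclidean distance between a lung pNSC library and a brain NSC library was 109.2 ± 0.651 (SD over 9 pairs), against 49.1 ± 1.14 among lung pNSCs, 47.8 ± 1.61 among brain NSCs and 408.1 ± 0.904 (6 pairs) from lung pNSCs to Lung. The study calls such samples lung cells, and Lung held 6255 to 6405 CPM of endothelial and 4564 to 4587 CPM of leukocyte markers. Lung thus held several cell types and was no NSC line, so cell type and growth as a line cannot be told apart in this contrast. By r and distance, lung pNSCs lay nearer to brain NSCs than to Lung, and further from brain NSCs than replicates lie from each other. These are coefficients across genes, which are no replicates, and no p is given for them. The defining genes of lung epithelium were close to absent. Of 24 such markers 5 were tested, 10 had no count in any of the 6 libraries, and the club cell gene *Scgb1a1* and the surfactant gene *Sftpa1* were among those at 0. Their summed level was 131 to 134 CPM in lung pNSCs and 149 to 155 in brain NSCs, nearly all of it the lipid transporter gene *Abca3*, against 38480 to 39250 in Lung. The pioneer factor gene *Foxa1* was at 0 in all lung pNSC libraries while brain NSCs had 1.32, 1.12 and 0.746 CPM, which put lung pNSCs at least 7.68-fold lower, and the mucin gene *Muc1* fell by 1.04 on the log2 scale (-0.95 and not called without lung pNSC replicate 3). Among markers of lung mesenchyme and position, 1 of 8 was tested: *Tbx2*, a T-box factor, had 0.692, 1.08 and 0.688 CPM in brain NSCs and 4.74, 5.85 and 4.62 CPM in lung pNSCs and rose by 2.56 on the log2 scale.

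Markers of blood, vessels and muscle were at low levels in both lines. The 12 leukocyte markers summed to 2.78 to 4.23 CPM in lung pNSCs (*Ptprc* had at most 1 count per library), and 1 was tested, *Cd68*, which rose by 1.04 on the log2 scale. Without brain NSC replicate 1, brain NSC replicate 3 or lung pNSC replicate 2 its value was 0.94, 0.88 or 0.84, and it was not called. The 8 endothelial markers summed to 3.11 to 4.35 CPM, with 2 tested and *Kdr*, a VEGF receptor gene, higher by 1.18 (0.99 and not called without lung pNSC replicate 3). The 8 muscle markers summed to 3.25 to 3.596 CPM in lung pNSCs and 9.29 to 9.796 in brain NSCs, and *Actc1*, cardiac actin, fell by 2.53. Of 7 tested fibroblast and mesenchyme genes (17 listed), 2 rose and 3 fell. *Col1a1*, the main chain of type I collagen, had 0.461, 0.259 and 0.402 CPM in brain NSCs and 1.48, 1.67 and 1.33 CPM in lung pNSCs, and *Twist1* rose by 1.73, while *Acta2*, *Col3a1* and *Thy1* fell by 2.31, 1.93 and 1.41. Most of the 177 to 181 CPM of this list in lung pNSCs was fibronectin (*Fn1*, 92.98, 89.2 and 92.02 CPM) and *Fbln1*, and the same list summed to 7265 to 7396 CPM in Lung. Of 10 tested neural crest and Schwann cell genes (16 listed), 1 rose and 4 fell. This list, which in both lines was mostly the endothelin receptor gene *Ednrb*, summed to 2380 to 2384 CPM in brain NSCs, 594 to 602 in lung pNSCs and 1514 to 1544 in Lung. *Tfap2a*, a factor of early neural crest, rose by 2.11, and *Sox10*, *Ednrb*, *Erbb3* and *Mitf* fell by 5.77, 2.74, 1.94 and 1.05. The crest specifier *Foxd3* had 1 count in 1 library of 6.

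**Figure D1:**
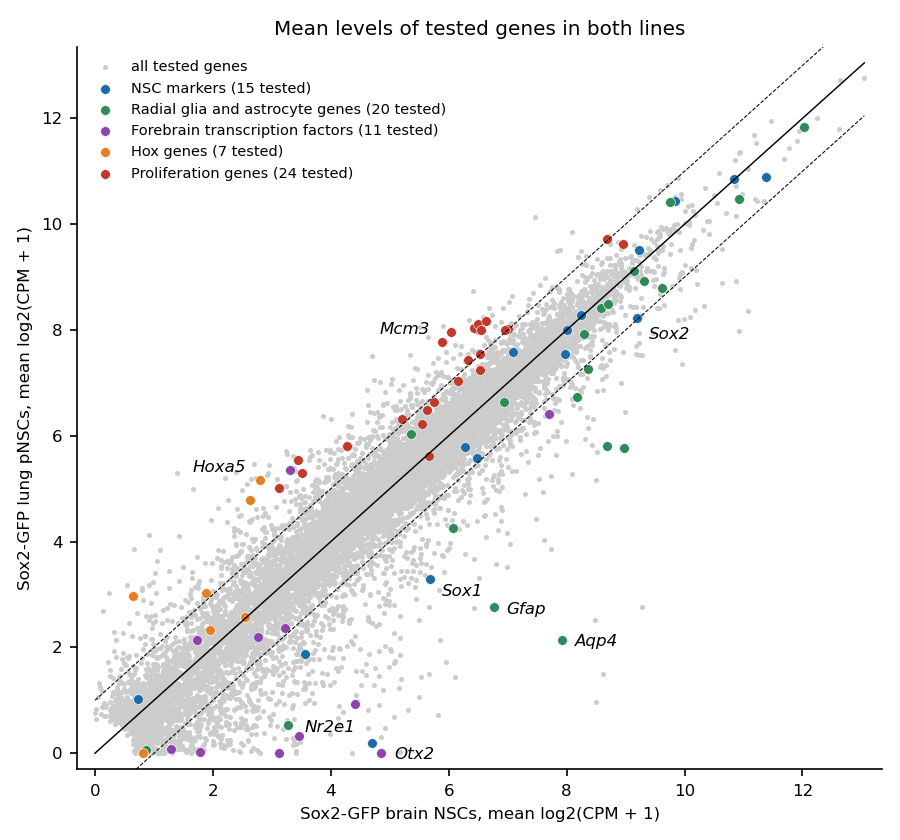
Each point is a tested gene, placed by its mean log2(CPM + 1) in the 3 Sox2-GFP brain NSC libraries (x axis) and the 3 Sox2-GFP lung pNSC libraries (y axis), with the solid line at equal levels and dashed lines 1 log2 unit away. Proliferation genes lie at or above the line, forebrain factors and glial genes mostly below it, and *Otx2* at 0 for lung pNSCs.

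Of the NSC markers 15 were tested, of which none rose and 3 fell, a share of 20% called against 15.6% of all tested genes. The list's median log2 fold change was -0.43. *Sox2* (chromosome 3, 34650405 to 34652461, GRCm38, within the transcript *Sox2ot* on the same strand), a factor of neural and other stem cells, was at 600.2, 576 and 575 CPM in brain NSCs and 292, 306 and 301 CPM in lung pNSCs. Every lung pNSC library lay below every brain NSC library, and at -0.97 ± 0.0185 (SE, n = 3 each; edgeR adjusted p = 6.26e-78) the log2 difference stopped just short of the fold limit, which it passed with upper-quartile scaling (-1.0025). *Sox1* (chromosome 8, 12395295 to 12400126, with *Sox1ot* overlapping it in the same direction), which the study names as the earliest marker specific to NSCs, fell from 52.8, 50.4 and 47.1 CPM to 8.996, 9.06 and 8.301 CPM, a log2 change of -2.52 ± 0.0605 (edgeR adjusted p = 8.77e-68). *Sox3*, the other member of this Sox subfamily, was at 309.8, 298 and 298 CPM and 306, 313 and 309 CPM, and the ranges overlapped (log2 0.03 ± 0.0194, edgeR adjusted p = 0.225). The 3 genes of 1 subfamily therefore did not move alike.

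The steepest fall among NSC markers was in *Nr2e1* (chromosome 10, 42561963 to 42583632), which encodes the nuclear receptor TLX of forebrain NSCs. It stood at 25.3, 24.8 and 24.4 CPM in brain NSCs and at 0, 0.139 and 0.311 CPM in lung pNSCs (0, 3 and 7 counts), a log2 change of -7.29 ± 0.171 (edgeR adjusted p = 8.28e-69). *Prom1*, the gene of the surface protein CD133 used to sort stem cells, fell from 9.91, 10.98 and 11.5 to 3.302, 2.28 and 2.44 CPM (log2 -2.03 ± 0.117, edgeR adjusted p = 2.46e-32). Other markers stayed within the fold limit. *Nes*, the nestin gene, was at 605, 600.1 and 599 CPM in brain NSCs and 736, 728 and 734 CPM in lung pNSCs, with no overlap and a log2 difference of 0.28 ± 0.0163. *Vim*, the vimentin gene, was at 1857, 1808 and 1848 CPM and 1849, 1832 and 1864 CPM, with overlapping groups and a log2 difference of 0.00 ± 0.0143 (edgeR adjusted p = 0.952). *Olig2* had 924, 903 and 901 CPM and 1385, 1382 and 1378 CPM, all lung pNSC libraries above all brain NSC libraries, at a log2 difference of 0.59. *Fabp7*, the brain lipid binding protein of radial glia, had 2688, 2594 and 2707 CPM and 1911, 1866 and 1940 CPM (log2 -0.49). Among others, *Fut4* (0.66) was on the higher side, and *Pax6* (-0.50), the RNA-binding *Msi1* (-0.93) and *Msi2* (-0.43) and N-cadherin, *Cdh2* (-0.02), on the lower side, all in log2 fold change. Read on the 8 genes fixed as markers of NSC identity, which share 7 genes with this list, the summed level was 5817 to 5885 CPM in lung pNSCs, 6828 to 6967 in brain NSCs and 339 to 364 in Lung, and 1 of the 8, *Sox1*, was called.

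**Figure D2:**
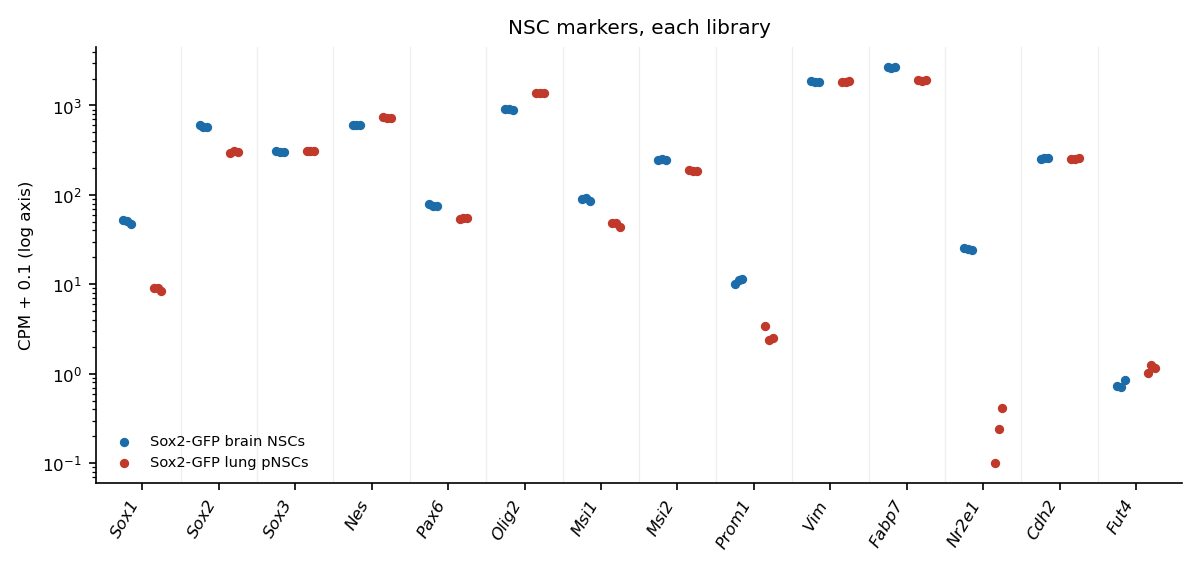
CPM with 0.1 added, on a log axis, for 14 of the NSC markers, with each point 1 library of Sox2-GFP brain NSCs (blue) or Sox2-GFP lung pNSCs (red). The groups lie on top of each other at *Vim*, *Cdh2* and *Sox3* and are furthest apart at *Nr2e1*, *Sox1* and *Prom1*.

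The forebrain code was lower in lung pNSCs. Of 26 forebrain transcription factor genes 11 passed the filter, of which 8 fell and 1 rose. In 4 of the 11, 1 group was at or under the floor of 3 counts. Such genes passed the filter through the other group alone, so their direction was fixed by it and adds no support. The list's median log2 fold change was -4.40 (-4.40 with genes at 0 set to their bound), against 0.00 over all tested genes. This median is the fitted value of *Gsx1*, which is near the floor in lung pNSCs, so its size is uncertain. *Otx2* (chromosome 14, 48657677 to 48673819, overlapped on the other strand by *Otx2os1*), a head organizer factor, had 502, 657 and 465 counts (28.9, 28.4 and 26.7 CPM) in brain NSCs and 0 counts in all 3 lung pNSC libraries, which put it at least 202-fold lower. *Six3* fell from 9.28, 10.6 and 10.2 CPM to 0.144, 0.325 and 0.266 CPM (log2 -5.33 ± 0.200, edgeR adjusted p = 1.01e-48), and its antisense partner *Six3os1*, which shares the locus and cannot be told apart without strand, was at 0 in lung pNSCs. *Otx1* fell from 19.6, 21.2 and 19.8 to 1.005, 0.929 and 0.755 CPM. *Barhl2* was seen with 1, 0 and 0 counts in lung pNSCs against 43, 56 and 42 in brain NSCs, a ratio of 158.1 with a 95% counting interval of 27.9 to 6289, and *Gsx1* had a ratio of 22.99 (8.64 to 86.4). *Nr2f1*, a COUP-TF factor of cortical areas, fell by 1.32 on the log2 scale, and *Bcl11b* by 1.01, just over the limit. *Bcl11b* lost its call without brain NSC replicate 2 (-0.97), brain NSC replicate 3 (-0.997) or lung pNSC replicate 2 (-0.85), and also with total counts only, with no filter and in the fit of all 28 samples. *Emx2* was not called, at -0.70.

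*Lhx2*, a factor of the eye field and cortex that was picked out after its values were seen, was the 1 forebrain gene that rose. It had 8.36, 8.86 and 9.35 CPM in brain NSCs and 40.4, 38.8 and 40.2 CPM in lung pNSCs, a log2 change of 2.16 ± 0.0635 (edgeR adjusted p = 7.28e-59). All lung pNSC libraries lay above all brain NSC libraries.

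Genes of the midbrain and hindbrain went both ways. Of 22, 13 were tested, 3 rose and 2 fell, with a median log2 fold change of -0.47. *En1* (chromosome 1, 120602418 to 120607992), a factor of the midbrain-hindbrain border, rose from 3.29, 3.16 and 3.27 CPM to 24.9, 24.7 and 22.2 CPM (log2 2.88 ± 0.0923, edgeR adjusted p = 3.3e-55). Its paralog *En2* rose from 15.6, 16.3 and 15.9 CPM to 58.6, 58.7 and 58.3 CPM (log2 1.86 ± 0.04997, edgeR adjusted p = 7.53e-63). *Egr2*, the Krox20 factor of hindbrain segments and myelinating Schwann cells, rose from 2.31, 2.51 and 2.18 to 11.1, 12.9 and 12.3 CPM. The groups were apart at all 3 genes. *Lmx1b* fell from 0.922, 1.82 and 1.43 to 0.239, 0.139 and 0.133 CPM and *Meis2*, a cofactor of Hox proteins, from 54.9, 55.4 and 55.7 to 14.6, 14.8 and 14.7 CPM. Its relative *Meis1* was not called (-0.79), nor were *Irx1* (-0.71), *Irx2* (-0.47) and *Irx5* (-0.10).

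The Hox genes that were detected lay almost wholly in the 3′ part of the HoxA cluster. Of 39 Hox genes 16 had no count in any library and 7 were tested, with 4 rises, 1 fall and a median log2 fold change of 1.38. *Hoxa3* had 5.07, 5.19 and 5.39 CPM in brain NSCs and 26.9, 26.7 and 26.4 CPM in lung pNSCs. *Hoxa5* had 5.88, 5.92 and 5.96 CPM and 37.04, 34.8 and 32.8 CPM, the highest level of a Hox gene in either line. *Hoxa7* (chromosome 6, 52214491 to 52221854) had 0.576, 0.822 and 0.287 CPM and 6.12, 6.37 and 8.17 CPM, and *Hoxa4* 2.07, 2.94 and 3.097 CPM and 6.46, 7.43 and 7.59 CPM. These 4 genes rose by 2.34, 2.54, 3.53 and 1.38 on the log2 scale, with edgeR adjusted p of 4.07e-53, 9.61e-60, 7.99e-34 and 5.54e-18, and no library of 1 group reached into the other. *Hoxa3*, *Hoxa4* and *Hoxa5* overlap on the same strand, so reads of one may be counted to another or dropped. *Hoxa2*, with 2.94, 3.502 and 2.18 CPM in brain NSCs and 4.26, 3.62 and 4.17 CPM in lung pNSCs, was not called (log2 0.44). *Hoxb4* had 18, 13 and 12 counts in brain NSCs and 0 in lung pNSCs, at least 5.5-fold lower. Below the filter, *Hoxb2* and *Hoxb3* were also at 0 counts in every lung pNSC library, with 5, 8 and 4 and 18, 8 and 9 counts in brain NSCs, and *Hoxa6* had 2, 2 and 1 counts in brain NSCs and 5, 11 and 8 in lung pNSCs. The other detected Hox genes had at most 2 counts in a library. Counts of *Hoxb2*, *Hoxb3* and *Hoxb4* and those of *Hoxa3* to *Hoxa7* thus lay on opposite sides between the lines, though *Hoxb2*, *Hoxb3* and *Hoxa6* were too low for the test.

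Along the dorsal to ventral axis 11 of 18 genes were tested, with 2 rises, 3 falls and a median of -0.42. *Lbx1* (chromosome 19, 45232684 to 45235812), a factor of dorsal spinal and hindbrain neurons, rose from 0.115, 0.1297 and 0.287 CPM (2, 3 and 5 counts) to 7.08, 7.805 and 6.75 CPM, a log2 change of 5.32 ± 0.243 (edgeR adjusted p = 5.8e-41). *Dbx2*, which marks the middle of the tube, rose from 99.5, 98.3 and 104 to 227, 222 and 219 CPM. *Msx1* fell from 11.3, 11.6 and 9.35 to 0.718, 1.02 and 1.02 CPM and *Nkx6-2* from 5.71, 4.71 and 5.45 to 1.44, 1.25 and 1.24 CPM. *Pax7* had 2, 0 and 2 counts in lung pNSCs and 21, 36 and 22 in brain NSCs, a ratio of 22.1 (95% counting interval 8.32 to 83.3). Its paralog *Pax3* was at 21.8, 20.8 and 19.8 CPM in brain NSCs and 24.5, 27.2 and 24.4 CPM in lung pNSCs, a log2 difference of 0.28 ± 0.0585 that was not called. *Zic1*, *Zic2* and *Zic5* were not called (-0.03, -0.58 and -0.74). Of 7 tested retinoic acid genes (14 listed), 1 rose and 2 fell, with a median of -0.26. *Dhrs3*, which turns retinal back to retinol, had 99, 145 and 90 counts in brain NSCs and 1 count in each lung pNSC library, a ratio of 124.8 (42.4 to 608.5). The retinal dehydrogenase gene *Aldh1a1* fell from 87.5, 85.5 and 91.3 to 21.2, 19.5 and 19.3 CPM, and *Aldh1a3* rose from 0.634, 0.519 and 0.516 to 1.77, 2.18 and 2.44 CPM. The degrading enzyme gene *Cyp26b1* (-0.26) and the receptor genes *Rara* (-0.18), *Rarb* (-0.45) and *Rarg* (0.50) were not called.

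**Figure D3:**
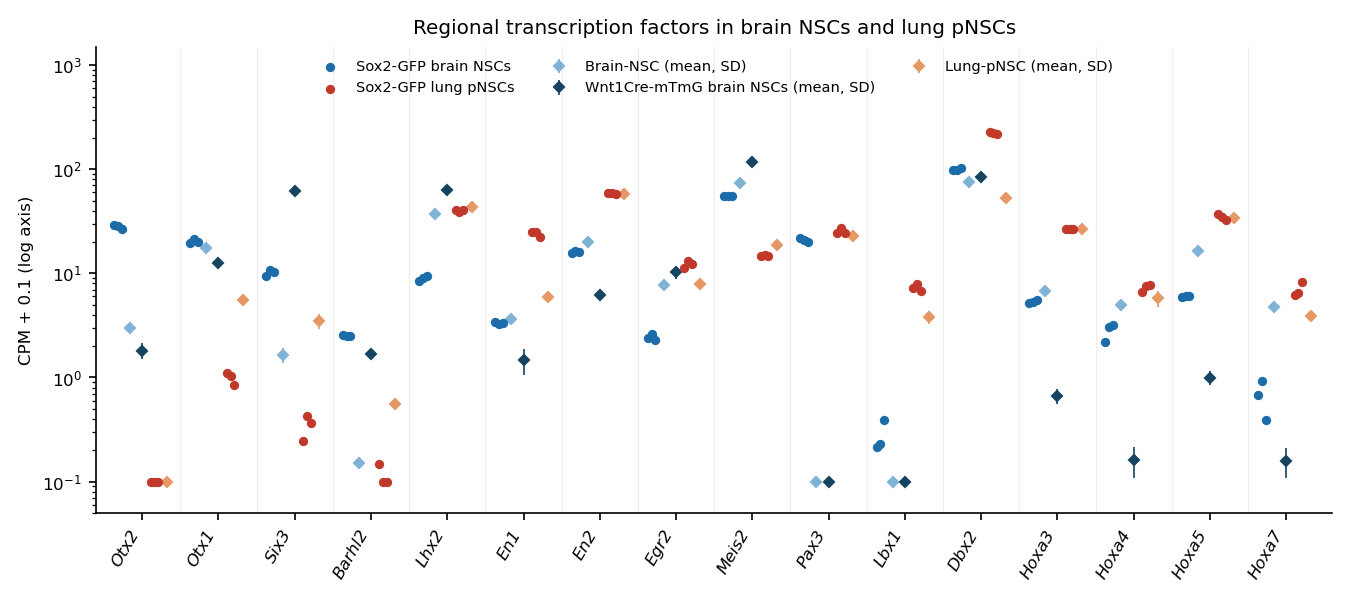
CPM with 0.1 added, on a log axis, for 16 regional transcription factors in the 3 brain NSC groups (Sox2-GFP, Brain-NSC, Wnt1Cre-mTmG) and the lung pNSC groups (Sox2-GFP, Lung-pNSC), with Sox2-GFP libraries as single points and the other groups as mean and SD. Sox2-GFP lung pNSCs are at 0 for *Otx2* and above their brain NSCs at *En1*, *En2*, *Lbx1*, *Hoxa3*, *Hoxa4*, *Hoxa5* and *Hoxa7*.

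Genes of glia fell in lung pNSCs or stayed inside the fold limit. Of 20 radial glia and astrocyte genes, all tested, 9 fell and none rose (median log2 fold change -0.64). For 6 of the 9 falls Sox2-GFP brain NSCs were the highest of the 3 brain NSC groups. For 3 of the 9 the lung pNSC mean lay inside the range of these groups. *Aqp4*, the water channel of astrocyte endfeet, fell from 237, 246 and 243 CPM to 3.302, 3.299 and 3.64 CPM, a log2 change of -6.15 ± 0.0479 (edgeR adjusted p = 6.66e-119). *Gfap*, the astrocyte intermediate filament, fell from 110.2, 107 and 108 CPM to 5.26, 5.90 and 6.13 CPM (log2 -4.24 ± 0.0538, edgeR adjusted p = 2.15e-96). The astrocyte enzyme gene *Aldh1l1* fell from 499, 502 and 497 to 53.3, 52.8 and 54.6 CPM and the gap junction gene *Gja1* from 415, 409 and 408 to 56.1, 55.4 and 53.9 CPM. The other calls were *Hopx* (-4.27), *S100b* (-1.89), *Sox9* (-1.45), *Glul* (-1.11) and *Gjb6*, which was near 0 in lung pNSCs with a ratio of 17.6 (95% counting interval 5.65 to 88.2). The most abundant members were not called. *Ptprz1* was at 4104, 4219 and 4194 CPM in brain NSCs and 3649, 3629 and 3651 CPM in lung pNSCs, and the glutamate transporter gene *Slc1a3* at 1929, 1937 and 1953 and 1413, 1423 and 1426 CPM. *Aldoc*, brain aldolase, lay on the other side at 862, 856 and 858 and 1373, 1360 and 1379 CPM (log2 0.67), and *Tnc* at -0.82.

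The oligodendrocyte lineage had 10 falls and no rise among 15 tested genes of 18, with a median of -2.15. For 9 of the 10 falls Sox2-GFP brain NSCs were the highest of the 3 brain NSC groups. For 6 of the 10 the lung pNSC mean lay inside the range of these groups. *Gpr17*, a receptor of committed oligodendrocyte precursors, fell from 396, 392.1 and 393 CPM to 1.63, 1.998 and 1.86 CPM, a log2 change of -7.75 ± 0.0473 (edgeR adjusted p = 4.12e-130). *Sox10* fell from 8.36, 9.99 and 9.98 CPM to 0.191, 0.139 and 0.178 CPM and *Nkx2-2* from 26.97, 26.8 and 27.5 CPM to 0.957, 0.7898 and 0.932 CPM, both transcription factors of the lineage. *Pdgfra*, the PDGF receptor of oligodendrocyte precursors, fell by 2.16. Of genes for later stages and myelin, *Zfp488*, *Enpp6*, *Cnp*, *Myrf* and *Mbp* fell by 3.93, 3.44, 2.15, 2.03 and 1.74. Other members were not called. *Olig1* was at 2352, 2279 and 2306 CPM in brain NSCs and 3266, 3332 and 3305 CPM in lung pNSCs (log2 0.50), and *Cspg4*, which encodes the NG2 proteoglycan, at 215, 217 and 215 and 379.7, 376 and 383 CPM (log2 0.81), with the groups apart at both. *Sox8* (-0.23) and *Lhfpl3* (0.21) were not called.

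Neuronal genes other than *Map2* were low in both lines. Of 20, 11 were tested, 4 fell and 2 rose, with a median of -0.75. *Dcx*, doublecortin of young neurons, fell from 38.9, 40.5 and 36.7 CPM to 0.670, 0.697 and 0.888 CPM (log2 -5.69 ± 0.109, edgeR adjusted p = 1.1e-77), and *Tubb3*, neuronal tubulin, from 32.4, 31.5 and 30.8 to 11.01, 10.4 and 10.6 CPM. *Snap25* and *Rbfox3* fell by 2.62 and 2.49. *Neurod1*, a proneural factor, rose from 0.115, 0.303 and 0.344 CPM to 3.54, 4.27 and 3.86 CPM (log2 3.87 ± 0.267, edgeR adjusted p = 1.51e-26), and *Syt1*, a synaptic vesicle protein, from 2.19, 1.95 and 2.12 to 8.09, 7.201 and 7.103 CPM. *Map2*, a microtubule protein, was at 1306, 1343 and 1326 and 1073, 1067 and 1080 CPM and was not called, nor were *Elavl3* (-0.75), *Elavl4* (-0.82) and *Gad1* (0.42).

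Genes of DNA replication and cell division were higher in lung pNSCs. All 24 proliferation genes were tested, 17 rose and none fell, and the median log2 fold change was 1.11. The summed level of the 24 was 5107 to 5167 CPM in lung pNSCs and 2337 to 2353 in brain NSCs. The 6 genes of the Mcm helicase, which opens DNA at replication origins, were all among the rises. *Mcm3* was at 56.5, 57.3 and 60.3 CPM in brain NSCs and 216, 219.9 and 214 CPM in lung pNSCs, and *Mcm4* at 61.95, 64.5 and 68.5 and 248, 245 and 250.1 CPM. In log2 fold change *Mcm2* stood at 1.49, *Mcm3* at 1.89, *Mcm4* at 1.92, *Mcm5* at 1.61, *Mcm6* at 1.61 and *Mcm7* at 1.04, with SEs of 0.0233 to 0.0279 and edgeR adjusted p of 1.4e-70 for *Mcm7* and 5.17e-92 for *Mcm4*. The groups were apart at all 6.

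The promoters of Mcm genes are classic targets of E2F factors, and the windows of 250 bases before and 50 after the start were searched on both strands for the E2F-type letters TTTCCCGC and TTTGGCGC. The match was found in 4 of the 5 Mcm genes with a RefSeq window (not in *Mcm2*) and in 514 of 32851 windows of all genes (1.56%; 1.07% and 0.514% for the 2 motifs singly). Whether such a match bears on the rise of a gene was not tested. The 4 windows are shown in the direction of the gene, GRCm38.p6 from RefSeq, with the matches in capitals. They lie at chr1:20820263-20820562 on the minus strand (*Mcm3*), chr8:75109259-75109558 on the plus strand (*Mcm5*), chr1:128359656-128359955 on the minus strand (*Mcm6*) and chr5:138171834-138172133 on the minus strand (*Mcm7*).
Mcm3: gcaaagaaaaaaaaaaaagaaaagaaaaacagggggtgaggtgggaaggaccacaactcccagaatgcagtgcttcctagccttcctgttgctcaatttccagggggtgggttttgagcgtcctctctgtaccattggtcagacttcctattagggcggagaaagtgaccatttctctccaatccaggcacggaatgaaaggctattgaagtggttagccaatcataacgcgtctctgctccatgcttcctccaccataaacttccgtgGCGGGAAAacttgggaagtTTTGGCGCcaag
Mcm5: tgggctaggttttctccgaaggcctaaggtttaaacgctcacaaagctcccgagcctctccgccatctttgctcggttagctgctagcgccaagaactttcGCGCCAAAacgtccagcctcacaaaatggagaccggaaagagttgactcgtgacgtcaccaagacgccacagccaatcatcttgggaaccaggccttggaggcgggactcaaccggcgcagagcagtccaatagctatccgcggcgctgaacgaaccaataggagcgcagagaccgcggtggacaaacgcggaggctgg
Mcm6: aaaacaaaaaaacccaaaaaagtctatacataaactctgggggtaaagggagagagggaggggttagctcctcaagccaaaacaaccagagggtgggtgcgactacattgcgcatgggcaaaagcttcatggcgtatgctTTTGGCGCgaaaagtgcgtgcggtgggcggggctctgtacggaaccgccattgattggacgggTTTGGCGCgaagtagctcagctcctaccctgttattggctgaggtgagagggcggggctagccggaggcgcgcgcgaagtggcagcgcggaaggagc
Mcm7: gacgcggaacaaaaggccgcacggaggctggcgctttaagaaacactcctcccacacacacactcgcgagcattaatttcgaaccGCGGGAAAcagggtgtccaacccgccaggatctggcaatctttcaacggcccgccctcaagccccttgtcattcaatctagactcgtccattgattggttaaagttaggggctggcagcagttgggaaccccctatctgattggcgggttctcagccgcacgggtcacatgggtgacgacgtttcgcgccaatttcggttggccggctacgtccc

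Counted by gene, a match stood in 47 of 576 called higher genes (8.16%), 15 of 973 called lower genes (1.54%) and 365 of 10468 tested genes (3.49%). Among 20 proliferation genes with a window it stood in 4, all of them the Mcm genes shown. The other proliferation genes with a window had none, although most of the list rose. A match is a description of these letters and not of a factor bound there. Among the largest rises of proliferation genes, beside *Mcm3* and *Mcm4*, were G1/S factors. *Ccne2*, cyclin E2, rose from 8.82, 10.98 and 9.92 CPM to 46.5, 44.7 and 46.4 CPM (log2 2.19 ± 0.0606, edgeR adjusted p = 1.75e-61), *Ccne1* from 10.6, 9.17 and 11.4 to 38.9, 35.9 and 40.04 CPM and *E2f1* from 7.78, 7.61 and 7.801 to 30.6, 31.4 and 32.1 CPM. *Mki67*, the gene of the Ki67 antigen, rose from 408, 417 and 409 CPM to 834, 848 and 829.8 CPM, at a log2 of 1.02 close to the limit (0.98 and not called with upper-quartile scaling, 0.99 under the stricter filter). The mitotic genes *Ccnb1* (0.70), *Plk1* (0.86) and *Aurkb* (0.89) and the topoisomerase gene *Top2a* (0.67) were on the higher side and not called. In the list of DNA methylation and Polycomb genes 20 of 21 were tested, with 2 rises, 1 fall and a median of -0.05, a share called near the 15.6% of all tested genes. *Uhrf1* and *Dnmt1* act together in copying DNA methylation at replication. *Uhrf1* rose from 50.4, 48.8 and 48.2 to 237, 227 and 232 CPM and *Dnmt1* from 174, 169 and 172 to 409, 419.5 and 411 CPM. *Jarid2* fell by 1.06, and *Dnmt3a* (-0.15), *Ezh2* (0.34), *Bmi1* (0.19) and *Tet3* (-0.40) were not called.

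The level of these genes also varied among brain NSC lines. Mean *Mki67* was 411 ± 5.03 CPM (SD, n = 3) in Sox2-GFP brain NSCs, 888 ± 15.4 (n = 2) in Brain-NSC and 723 ± 16.5 (n = 3) in Wnt1Cre-mTmG brain NSCs, against 837 ± 9.52 (n = 3) in Sox2-GFP lung pNSCs. Mean *Mcm3* was 58.05, 260.4 and 158 CPM in the 3 brain groups and 217 in Sox2-GFP lung pNSCs. Of the 3 brain NSC groups, Sox2-GFP was the lowest for all 17 called proliferation genes, and the lung pNSC mean lay inside the range of the 3 brain groups for 8 of the 17. Against Brain-NSC, the *Mcm3* level of lung pNSCs was thus lower, and against the other brain groups it was higher, as values without a test.

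**Figure D4:**
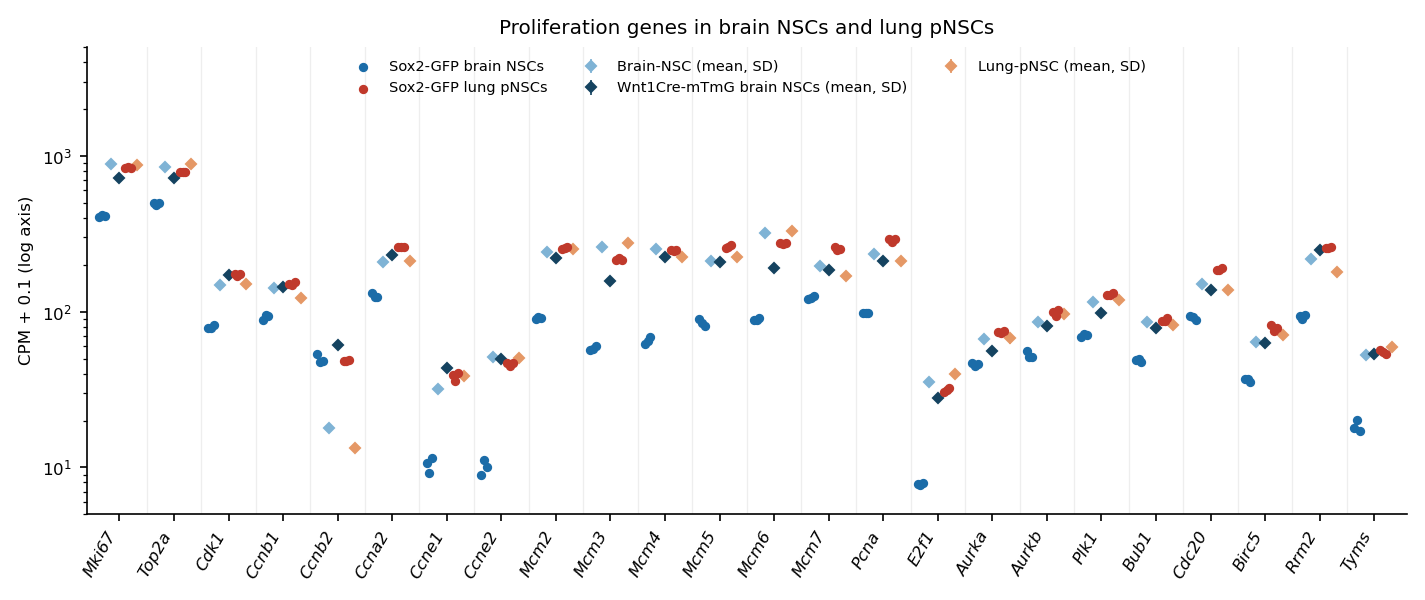
CPM with 0.1 added, on a log axis, for the 24 proliferation genes in the 3 brain NSC groups and the lung pNSC groups, with Sox2-GFP libraries as single points and the others as mean and SD. Sox2-GFP brain NSCs (blue points) are the lowest brain NSC group at the 17 called genes.

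Inhibitors of the cell cycle and p53 genes had 4 rises and 2 falls among 18 tested (median 0.65). *Cdkn1a*, the p21 inhibitor and a p53 target, rose from 132, 129.5 and 125 CPM to 372, 366 and 364 CPM (log2 1.5005 ± 0.0219, edgeR adjusted p = 4.53e-90), and the p53 targets *Phlda3*, *Ccng1* and *Bax* rose by 1.51, 1.05 and 1.05. *Cdkn1c*, the imprinted inhibitor p57, fell from 14.5, 12.97 and 12.96 to 1.53, 1.63 and 1.51 CPM, and *Cdkn2b* by 1.06 (-0.97 and not called without lung pNSC replicate 1). Genes that drive the cell cycle and genes that restrain it were thus both among the rises. *Trp53inp1* (0.70), *Sesn2* (-0.52), *Cdkn1b* (-0.88) and *Cdkn2c* (0.61) were not called.

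Both lines were grown with EGF and bFGF, and 26 of 30 genes of EGF and FGF signalling were tested, with 7 rises and 5 falls (median 0.20). Sox2-GFP brain NSCs were the lowest of the 3 brain NSC groups for all 7 rises and the highest for 4 of the 5 falls. The lung pNSC mean lay inside the range of these groups for 4 of the rises and 3 of the falls. Feedback inhibitors of the pathway were among the rises. *Dusp4*, a phosphatase of ERK induced by it, rose from 3.98, 4.37 and 4.36 CPM to 38.5, 36.8 and 40.6 CPM (log2 3.18 ± 0.0768, edgeR adjusted p = 2.14e-67). *Dusp6*, of the same family, rose from 79.6, 79.5 and 81.3 CPM to 295, 292 and 291 CPM (log2 1.86), *Spry4* from 44.2, 42.9 and 42.9 to 155, 152 and 149 CPM and *Spry1* by 1.23. The remaining rises were the ligand genes *Areg* (2.13) and *Hbegf* (1.13) and the ETS factor *Etv4* (1.23). The falls were among receptors and intracellular FGFs: *Fgfr3* from 388, 391.6 and 394 CPM to 114, 117 and 117 CPM, *Erbb4* by 1.43, *Erbb3* by 1.94, *Fgf14* by 2.13 and *Fgf11* by 1.70. *Egfr* was at 611, 618 and 609.9 CPM in brain NSCs and 386, 384 and 389.7 CPM in lung pNSCs and *Fgfr1* at 227, 229 and 219.5 and 211, 208 and 212 CPM, neither of them called. *Spred1* (0.20) and *Etv5* (0.95) were not called. *Spry1*, *Hbegf*, *Etv4*, *Fgfr3*, *Erbb4* and *Fgf11* were named after their values were seen.

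The Notch pathway had 4 falls and no rise among 19 tested genes of 20 (median -0.45). That is 21.1% called, against 15.6% of all tested genes. The ligand gene *Dll3* fell from 118, 119 and 118 to 30.9, 32.5 and 31.7 CPM and the target gene *Hes5* from 118, 113 and 115 to 47.4, 48.5 and 46.8 CPM (log2 -1.29 ± 0.0326, edgeR adjusted p = 2.18e-65), and *Hey2* and *Dlk2* fell by 1.09 and 1.02. *Dlk2* was not called without brain NSC replicate 2 (-0.95) or lung pNSC replicate 2 (-0.74), or with DESeq2 (-1.03, adjusted p = 0.0724). The receptor *Notch1* was at 469, 467 and 466 CPM and 453, 464 and 458 CPM, with the groups apart by little, and *Lfng* (-0.40), *Notch3* (-0.59) and *Dll1* (-0.80) were not called. In the Sonic hedgehog pathway 9 of 11 genes were tested, with 2 rises and 2 falls (median 0.07). *Ptch1* and *Hhip*, membrane inhibitors that hedgehog signalling itself induces, fell from 406, 404 and 402 to 140.2, 139.6 and 136 CPM and from 9.85, 10.2 and 10.7 to 3.02, 3.39 and 3.15 CPM. The coreceptor gene *Cdon* rose from 58.3, 53.6 and 54.3 to 176, 173 and 178 CPM and the repressor gene *Gli3* from 15.2, 14.3 and 14.9 to 48.2, 45.7 and 45.1 CPM. *Smo* (0.25), *Gas1* (0.46), *Sufu* (-0.18) and *Boc* (-0.47) were not called, and *Shh* had at most 2 counts in a library.

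Among 22 tested BMP and TGF-beta genes (27 listed) 3 rose and 4 fell, with a median of 0.01. The ligand gene *Bmp7* rose from 30.1, 29.9 and 28.3 to 113, 114 and 110 CPM and *Tgfb1* by 1.25, with *Tgfbr3*, named after its value was seen, at 1.21. *Id4*, an inhibitor of bHLH factors, fell from 30.8, 27.3 and 29.2 to 6.17, 6.74 and 6.66 CPM, and the antagonist gene *Nog*, *Bmp3* and *Bmp2* fell, with log2 changes of -1.71, -1.56 and -1.4967. *Bmpr2* (-0.04), *Bmp1* (0.19), *Bmpr1a* (-0.19) and *Id2* (0.05) were not called. Of 23 tested Wnt genes (34 listed) 2 rose and 3 fell (median -0.29). The share called, 21.7%, was near the 15.6% of all tested genes. *Axin2*, a target and brake of Wnt signalling, rose from 55.8, 53.9 and 55.7 to 115, 117 and 115 CPM and the receptor gene *Fzd1* by 1.23. The ligand gene *Wnt4* fell from 13.9, 14.7 and 14.1 to 1.72, 1.76 and 1.998 CPM, and 2 secreted modulators were near 0 in lung pNSCs, with ratios of 32.0 (95% counting interval 8.45 to 270.3) for *Rspo3* and 25.8 (6.75 to 219.3) for *Sfrp5*. *Fzd3* (-0.62), *Fzd9* (0.10), *Wnt7b* (-0.97) and *Wnt5a* (-0.29) were not called.

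Genes of cell adhesion went both ways. Of 22 tested integrins and laminins (26 listed) 6 rose and 4 fell, with a median of 0.36. *Itga4*, the alpha 4 chain that binds fibronectin and VCAM1, rose from 6.11, 4.97 and 5.33 CPM to 43.7, 41.95 and 43.6 CPM (log2 2.98 ± 0.0704, edgeR adjusted p = 2.03e-68), and *Itga1*, a collagen receptor chain, from 6.74, 6.66 and 6.65 to 37.8, 38.8 and 37.8 CPM. The laminin gene *Lama1* rose by 1.93. *Itga2* fell from 9.39, 9.43 and 9.06 to 0.191, 0.0929 and 0.355 CPM, *Itga7*, a laminin receptor chain, from 112, 112 and 114 to 18.2, 16.7 and 18.2 CPM, and *Lama2* by 2.76. *Itgb1* (0.35), *Itgb8* (-0.53), *Itgav* (0.93) and *Lamc1* (0.67) were not called. Axon guidance genes had 7 falls and 1 rise among 32 tested of 34 (median -0.58), or 25% called against 15.6% of all tested genes. *Epha3* fell from 2.996, 3.11 and 2.92 to 0.287, 0.418 and 0.311 CPM, *Epha5* from 180, 179 and 185 to 50.4, 49.3 and 47.3 CPM, and *Slit1*, a midline repellent, from 7.55, 8.47 and 8.03 to 1.39, 1.35 and 1.55 CPM. *Plxna4*, *Slit2* and *Sema3c* fell by 1.47, 1.43 and 1.41, and *Sema3d*, named after its value was seen, rose by 1.10. *Ntn1* (0.20), *Sema6d* (-0.57), *Sema6a* (0.24) and *Robo1* (-0.72) were not called.

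Glutamate receptor genes were divided, with 4 rises and 5 falls among 18 tested of 22 (median 0.05). The AMPA subunit *Gria1* fell from 2.65, 2.897 and 2.52 to 0, 0.232 and 0.355 CPM, the kainate subunit *Grik1* rose from 3.92, 3.42 and 3.79 to 20.8, 20.02 and 18.5 CPM, and the metabotropic *Grm3* rose from 40.1, 39.3 and 39.2 to 112, 110.2 and 111 CPM. The NMDA subunit *Grin2a* and the kainate subunit *Grik4* fell by 3.39 and 2.06. *Grm5* (0.29), *Gria2* (-0.44), *Gria4* (0.78) and *Grik5* (0.08) were not called. Of 20 neuropeptide genes 4 were tested (median 1.28). *Calca* (chromosome 7, 114631478 to 114636357), which encodes calcitonin and CGRP and is used by sensory neurons and by neuroendocrine cells of the lung, rose from 1.498, 1.902 and 1.66 CPM to 16.6, 14.6 and 17.3 CPM, a log2 change of 3.23 ± 0.119 (edgeR adjusted p = 1.6e-49). *Pthlh* rose by 2.32, *Nmb* fell by 1.26, and *Pomc* was not called (0.24).

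Immune genes went both ways, though the sums of both lists were higher in lung pNSCs. The MHC class I list summed to 1423 to 1430 CPM in lung pNSCs and 1130 to 1139 CPM in brain NSCs. The interferon response list summed to 168 to 173 CPM in lung pNSCs and 99.9 to 102 CPM in brain NSCs. Of 16 tested MHC class I genes (19 listed) 4 rose and 2 fell (median 0.27). The classical gene *H2-K1* fell from 20.0, 18.9 and 20.9 to 6.79, 7.16 and 7.28 CPM and *H2-T23* by 1.07, and *H2-Q4*, *H2-Q7*, the peptide transporter *Tap1* and the activator *Nlrc5* rose by 1.85, 1.16, 1.38 and 1.20. The H2 genes have close copies among which counting can divide reads, so their values are uncertain. Without brain NSC replicate 3, *Nlrc5* was at 0.91 and not called, and without lung pNSC replicate 3 the same held for *H2-T23*, at -0.95. *Calr* (0.29), *Pdia3* (0.50), *B2m* (0.34) and *Tapbp* (-0.82) were not called. Of 14 tested interferon response genes (22 listed, 1 of them under no such name in the table) 3 rose and 3 fell (median 0.12). *Ifitm3*, which blocks virus entry, rose from 4.495, 4.54 and 4.93 to 30.2, 29.9 and 31.5 CPM, *Tmem173*, the STING gene, from 2.07, 1.95 and 2.41 to 10.8, 9.25 and 9.23 CPM, and *Ifit2* by 1.34. *Ifi35*, *Bst2* and *Ifih1* fell by 2.41, 1.87 and 1.39. *Stat2* (0.09), *Ifi27* (0.87) and *Ddx58* (0.15) were not called either.

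Of 6 tested heterochronic genes (9 listed) 2 rose and 3 fell (median -1.95). *Hmga2*, a chromatin protein of fetal NSCs, rose from 6.28, 6.62 and 6.77 CPM to 39.3, 36.4 and 36.3 CPM (log2 2.50 ± 0.0698, edgeR adjusted p = 4.33e-61), and *Trim71*, a target of let-7, rose by 2.74. *Nr2f2*, a COUP-TF factor, fell from 46.04, 44.4 and 41.5 CPM to 1.24, 1.11 and 0.932 CPM, and the RNA-binding protein genes *Igf2bp3* from 35.3, 31.8 and 32.01 to 2.54, 1.91 and 2.62 CPM and *Igf2bp2* from 24.3, 22.1 and 23.4 to 2.201, 1.95 and 2.49 CPM. Fetal genes were thus on both sides, and *Hmga1* was not called (-0.51). Of 20 tested imprinted genes (30 listed) 2 rose and 3 fell (median -0.23), against 5.7% and 9.86% of all tested genes. The paternally expressed *Mest* rose from 99.1, 104 and 103 to 338, 339 and 342 CPM and *Peg12* from 21.4, 21.3 and 21.6 to 60.97, 63.2 and 59.5 CPM. The maternally expressed *H19* fell from 4.32, 3.72 and 3.56 CPM to 0.191, 0.0929 and 0.0888 CPM, *Grb10* from 10.1, 9.12 and 8.83 to 1.77, 1.49 and 1.51 CPM and the paternally expressed *Nnat* from 607, 596 and 600.3 to 214, 214 and 219.7 CPM. *Peg3* (-0.81), *Ube3a* (-0.11), *Peg10* (0.56) and *Igf2r* (0.10) were not called. Of 10 pluripotency genes 3 were tested (median -1.20): *Esrrb* rose from 1.09, 1.04 and 0.975 to 4.55, 4.79 and 4.57 CPM, and *Klf4* and *Nanog* fell by 1.72 and 1.20, with *Nanog* at 0.287, 0.372 and 0.222 CPM and *Pou5f1* at 1 count or none in every library. *Nanog* was at -0.95 and not called without brain NSC replicate 3, and at -1.22 with an adjusted p of 0.0596 in DESeq2. The Y-linked genes *Ddx3y*, *Eif2s3y*, *Kdm5d* and *Uty* were expressed in both lines and not called (-0.54 to -0.11, median -0.38), and *Xist* had 0.231 to 0.622 CPM.

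**Figure D5:**
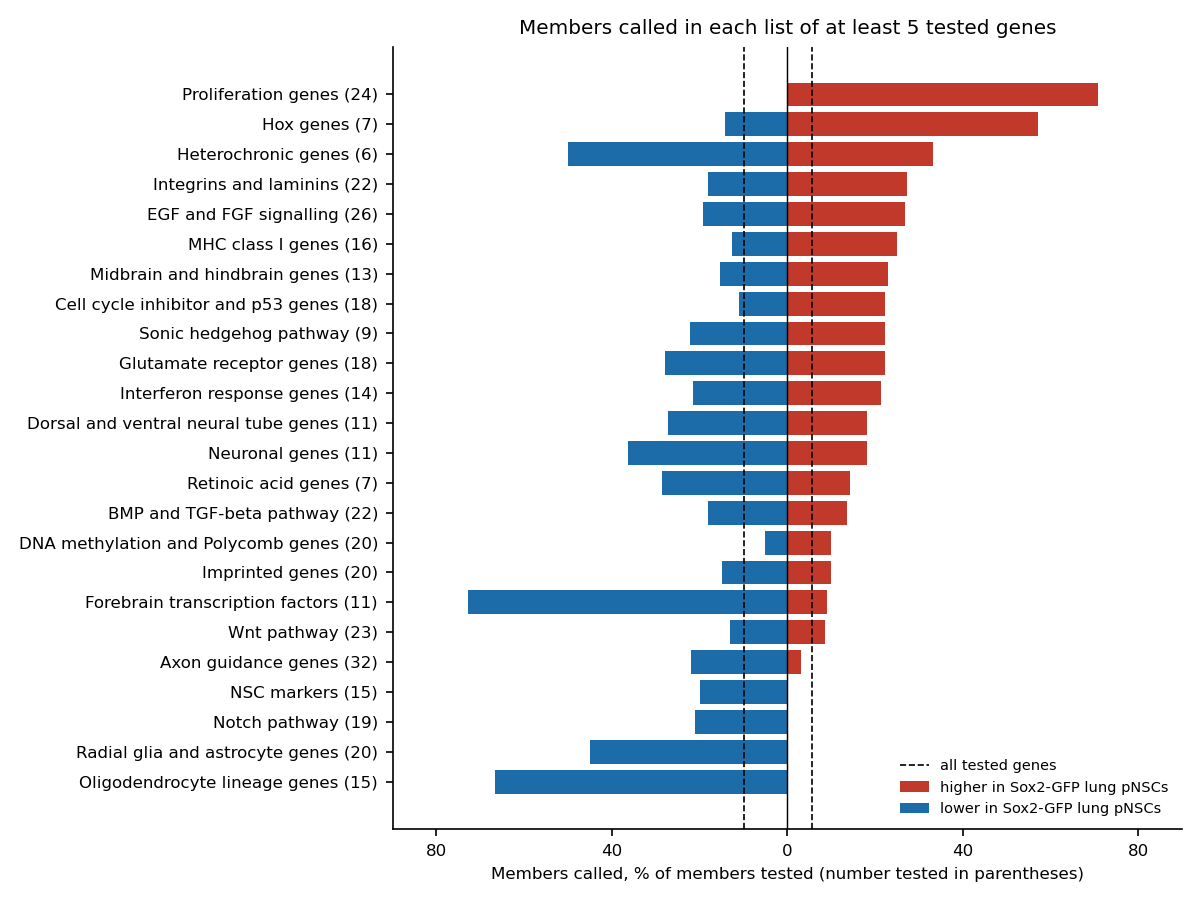
Share of tested members called higher (red, to the right) and lower (blue, to the left) in Sox2-GFP lung pNSCs, in percent, for each list with at least 5 tested genes (number tested in parentheses), with dashed lines at the shares over all tested genes, 5.7% and 9.86%. Proliferation genes have the largest share of rises, 17 of 24, and forebrain factors and oligodendrocyte genes the largest shares of falls. Of the tested forebrain factors, 4 had 1 group at or under the floor.

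The 12 largest rises, ranked over all genes past a mean of 5 CPM, were led by *Sostdc1*, a secreted inhibitor of BMP and Wnt signals. It had 0.403, 0.692 and 0.631 CPM in brain NSCs and 14.6, 13.8 and 12.3 CPM in lung pNSCs, a log2 change of 4.51 ± 0.159 (edgeR adjusted p = 2.53e-51). *Hydin*, a part of the motile cilium, was at 1.32, 0.735 and 0.574 CPM in brain NSCs and rose by 4.23 on the log2 scale. *Pcolce*, which aids collagen processing, rose from 1.61, 2.33 and 2.52 to 31.5, 31.04 and 29.96 CPM. The others were *Fndc3c1* (3.48), *Ptprv* (3.46), the kinase gene *Frk* (3.27), *Calca*, the sodium channel gene *Scn7a* (3.22), *Dusp4*, *Itga4*, *En1* and *Fam84a*. *Fam84a* was the most abundant of them, at 25.4, 24.0 and 25.8 CPM in brain NSCs and 185, 182 and 178 CPM in lung pNSCs (log2 2.85). Of the 12, *Hydin* and *Fam84a* had a lung pNSC mean inside the range of the brain NSC groups, and the others did not. In Brain-NSC, *Fam84a* had a mean of 181.7 CPM and *Hydin* 16.6 CPM, against 16.4 CPM for *Hydin* in Sox2-GFP lung pNSCs.

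The 12 largest falls held 3 genes with 0 or 1 count in the lung pNSCs. Besides *Otx2*, *Six3os1* had 345, 454 and 328 counts in brain NSCs and none in lung pNSCs, at least 140.2-fold lower, and *Zfhx4*, a zinc finger homeobox factor, had 611, 806 and 605 counts against 0, 0 and 1, a ratio of 2267 with a 95% counting interval of 406 to 89600. *Fbln2*, a matrix protein, fell from 361, 362 and 358 CPM to 0.909, 0.883 and 1.06 CPM (log2 -8.56 ± 0.0535, edgeR adjusted p = 5.1e-129). *Pla2g7*, a secreted phospholipase, fell from 619, 620.4 and 625 CPM to 4.83, 6.27 and 6.303 CPM, and *Agt*, angiotensinogen, which astrocytes secrete, from 352, 356 and 358 CPM to 4.64, 4.41 and 5.06 CPM. All 3 were abundant in Sox2-GFP brain NSCs and stood at about 6 CPM or less in lung pNSCs. In Brain-NSC and Wnt1Cre-mTmG brain NSCs the means were 892.5 and 320 CPM for *Fbln2*, 0.497 and 71.4 CPM for *Pla2g7* and 11.4 and 11.8 CPM for *Agt*. Of the 12 falls, *Pla2g7* and *Flot2* had a lung pNSC mean inside the range of the brain NSC groups, and the others did not. *Cybrd1* (-6.88), *Flot2* (-6.42), *Gng2* (-6.18), *Gpr17*, *Nr2e1* and *Aqp4* made up the rest. In all, 16 called genes had no count in any lung pNSC library and 1 had none in any brain NSC library.

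How far brain NSC lines differ among themselves was read from the groups Sox2-GFP brain NSCs, Brain-NSC and Wnt1Cre-mTmG brain NSCs. The mean of Sox2-GFP lung pNSCs lay inside the range of these 3 groups for 1009 of 2096 called genes (48.1%), against 61% of all tested genes. Among called genes that were higher it lay inside for 310 of 768 (40.4%), and Sox2-GFP brain NSCs were the lowest of the 3 brain groups in 77.9%. Among called genes that were lower it lay inside for 699 of 1328 (52.6%), and Sox2-GFP brain NSCs were the highest of the 3 in 74.6%. *Gfap* and *Sox10* lay inside this range, and *Otx2*, *Nr2e1*, *Sox1*, *Aqp4*, *Gpr17*, *En1*, *Lbx1*, *Hoxa3*, *Hoxa4*, *Hoxa5* and *Hoxa7* outside it. These shares carry no test, since the 3 brain groups come from separate experiments and share the Sox2-GFP group with the comparison itself. In correlation of mean profiles over 17393 genes, Sox2-GFP lung pNSCs were at r = 0.977 with Lung-pNSC, 0.973 with Sox2-GFP brain NSCs, 0.972 with Brain-NSC and 0.969 with Wnt1Cre-mTmG brain NSCs.

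The series holds another lung pNSC line, labelled Lung-pNSC, with its own brain line, Brain-NSC (2 replicates each). Whether the lung to brain difference was alike in both pairs was tested as an interaction, (Sox2-GFP lung pNSCs minus Sox2-GFP brain NSCs) minus (Lung-pNSC minus Brain-NSC). Of 14043 genes tested 2371 (16.9%) differed by at least 1 log2 unit at an edgeR adjusted p under 0.05, 939 (6.69%) toward higher and 1432 (10.2%) toward lower in the Sox2-GFP pair. Of the 2096 genes called in the Sox2-GFP pair 1314 were also called in this test. The test holds the same Sox2-GFP difference that chose those 2096, so the overlap is raised by construction and is no separate evidence. The labels give neither age nor reporter for Lung-pNSC and Brain-NSC. The study describes lung pNSCs from sorted GFP+ lung cells of adult Nes-GFP mice, in which Nestin elements drive GFP, and the labels do not tie these libraries to them by name. The pairs share no sample. They differ in sex as read from RNA: Sox2-GFP lines expressed Y genes, while Lung-pNSC and Brain-NSC had none and had *Xist* at 1849 ± 41.04 and 1880 ± 106 CPM (SD, n = 2), and the part of sex in the result was not tested. Age at derivation and reporter allele cannot be told apart from line either.

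For proliferation genes the interaction was called for 15 of 24, all toward higher in the Sox2-GFP pair. The list's median log2 fold change was 0.05 between Lung-pNSC and Brain-NSC, against 1.11 in the Sox2-GFP pair. For *Mcm3* the difference of the log2 fold changes was 1.78 ± 0.0421 (edgeR adjusted p = 2.85e-52). Astrocyte genes were called toward lower for 9 of 20 and toward higher for 1 (*Cd44*, named after its value was seen), and oligodendrocyte genes toward lower for 10 of 15, with medians of -0.23 and -0.26 in the other pair. *Gfap* differed by -3.61 ± 0.224 and *Gpr17* by -4.82 ± 0.197. *Sox1* differed by -2.0043 ± 0.0895 (edgeR adjusted p = 9.86e-34), and *Sox2*, at -0.85 ± 0.0346, was not called. For Hox genes 3 of 11 were called toward higher and 1 toward lower: *Hoxa5* differed by 1.46 ± 0.117, while *Hoxa3* (0.32 ± 0.1399) was not called. *Dusp4* (0.56 ± 0.1398) and *En2* (0.30 ± 0.0858) were not called either, and both were higher in each lung line than in its brain line, by 2.61 and 1.55 on the log2 scale in Lung-pNSC against Brain-NSC.

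The largest differences of effect came mostly from genes near 0 in 1 group of the other pair, where the fitted size depends on the prior count. *Pax3* was at 21.8, 20.8 and 19.8 and 24.5, 27.2 and 24.4 CPM in the Sox2-GFP libraries and at 0 in Brain-NSC against 22.8 ± 2.05 CPM (SD, n = 2) in Lung-pNSC. *Calca* was at 0 in Brain-NSC and 148 ± 1.71 CPM in Lung-pNSC, so that it was higher in both lung lines, and the interaction was toward lower in the Sox2-GFP pair. *Bcl11a*, a factor of neurons and blood, fell from 12.6, 12.2 and 11.5 to 0.622, 1.21 and 0.932 CPM in the Sox2-GFP pair and stood at 0 in Brain-NSC and 9.25 ± 1.21 CPM in Lung-pNSC, the opposite direction. Toward higher, *Tagln2*, an actin-binding protein, was at 98.5, 95.4 and 91.1 and 60.3, 57.9 and 58.1 CPM in the Sox2-GFP pair and at 193 ± 1.74 CPM in Brain-NSC and 0.226 ± 0.0828 CPM in Lung-pNSC, and *Anxa2* at 17.1 and 0.103 CPM.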

How the data were processed

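RNA was poly(A)-selected, made into libraries with the NEBNext Ultra kit and sequenced single-end. The authors deposited raw counts per gene (28244 genes, 28 samples in 11 groups). The submitters' processing notes name HISAT2, HTSeq and Cufflinks, the build is GRCm38, and the strand setting is not given in the sources used here. Groups were taken from the labels. The 6 libraries held 17026140 to 22637031 counts, and counting intervals (95%) and the floor of 3 counts cover counting error only.

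Genes were filtered with filterByExpr (minimum count 10, total 15), scaled by TMM and fitted with edgeR 4.0.16 (R 4.3.3) on the 6 libraries by quasi-likelihood, with Benjamini-Hochberg adjustment and a call where the adjusted p was under 0.05 and the log2 fold change was 1 or more in size. Every adjusted p in the text is from these fits. The interaction was fitted on 10 libraries of 4 groups. Levels are CPM with 1 TMM scaling over 28 samples. On simulated counts of 13356 genes, 200 of them changed, the main test recovered 100 of 100 genes at the smaller and 100 of 100 at the larger simulated fold, with 0 false calls. The interaction test also recovered all of its changed genes, with 2 false calls. Changed genes were well above the floor and both folds above the fold limit, so the simulation cannot speak for calls near either. Alternatives were DESeq2 1.42.0, other scalings and filters, no fold limit, a replicate block, each library left out, and fits with more samples. Figures were drawn with matplotlib 3.10.9 (Python 3.11.15).

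Named were, for each list, up to 6 called members with the largest change and up to 4 uncalled members with the highest level, all NSC markers and detected Hox genes, the 12 largest rises and falls at a mean of at least 5 CPM, and the 6 largest differences of each sign in the interaction. Other members, named to complete a list or a gene family, were chosen after their values were seen. A few members are not reported here by name. The members, lists and tests were chosen with earlier results of these data known. Positions are from GENCODE vM21 and promoter windows (250 bases before and 50 after a start) from RefSeq, both on GRCm38.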

Additional observations from a re-analysis of the deposited data

Results flagged for a closer look

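The difference between lung pNSCs and brain NSCs was not the same in the Sox2-GFP pair and in the pair Lung-pNSC and Brain-NSC for 2371 of 14043 genes (edgeR interaction, 2 replicates in each group of the second pair). Toward higher in the Sox2-GFP pair, the fitted log2 differences of the effects were 9.39 for *Ddit4l*, 8.95 for *Tagln2*, 7.66 for *Rpl32l*, 6.57 for *Vcp-rs*, 6.43 for *Anxa2* and 6.27 for *Zcchc12*. All 6 had means from 0.0279 to 0.555 CPM in Lung-pNSC, and in Brain-NSC the means ran from 7.15 CPM for *Rpl32l* to 193 CPM for *Tagln2*. *Rpl32l* and *Vcp-rs* have near-identical copies elsewhere in the genome, so their counts are uncertain.

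Toward lower in the Sox2-GFP pair, the fitted log2 differences were -14.27 for *Bcl11a*, -11.60 for *Pax3*, -11.34 for *Calca*, -10.68 for *Zfp711*, -10.0033 for *Mxra7* and -7.97 for *Pla2g7*. *Bcl11a*, *Pax3* and *Calca* were at 0 in both Brain-NSC libraries, and *Zfp711*, *Mxra7* and *Pla2g7* had means of 0.0244, 0.0731 and 0.497 CPM there. The fitted sizes of genes at or near 0 in a group depend on the prior count of the fit and are no bounds. *Pla2g7* differed mostly through the Sox2-GFP pair itself, with a log2 fold change of -6.75 there against 1.22 between Lung-pNSC and Brain-NSC.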

How the results depend on the processing

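Both counts of calls stayed within 1.5 times their value under DESeq2, other scalings, no filter and a replicate block. A stricter filter (mean count of at least 100), which tests fewer genes, gave 1114 calls (476 higher, 638 lower) for lung pNSCs against brain NSCs and 1267 (531 and 736) for the interaction. Without the fold limit there were 10390 (5154 and 5236) and 8992 (4477 and 4515). Leaving out 1 library at a time gave 2168 to 2216 calls (790 to 826 higher, 1355 to 1409 lower) and 2312 to 2404 for the interaction (909 to 965 and 1367 to 1481). The similarity of the mean profiles was 0.9718 with Spearman's coefficient, 0.9721 on TMM log2(CPM + 1), 0.9787 over all genes with a count, and 0.97 to 0.9709 with 1 library left out. Widening the range of the 3 brain NSC groups by 1 log2 unit put 1842 called genes inside it.

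Same-numbered replicates deviated together by correlations of 0.0199, 0.0387 and 0.0275, under 0.1 in every pair, although each library correlated best with its own number. The study states that brain NSCs mostly came from the same mice as the pNSCs, without tying replicate numbers to mice, so a shared number is not known to mark a shared mouse. The replicate block gave 2100 calls, of which 2090 were shared with the 2096, and 2351 for the interaction.

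Genes close to no change turned direction. *Vim* was at 0.0014 with DESeq2, 0.0137 with total counts only, 0.0168 with no filter, 0.0082 and 0.0083 in the fits with the Lung samples and of all 28 samples, and -0.0139 to 0.0077 with 1 library left out. *Sox3* was at -0.007 with upper-quartile scaling and at -5e-04 under the stricter filter. In none of these fits was the gene called. The depth limits genes near the floor, and with such tight replicates the calls close to 1 log2 unit depend on the fold limit.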
